A study of Danio rerio with 6 samples.

Results

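Open regions on the unplaced scaffolds of the zebrafish genome were described in ATAC-seq peak lists of whole embryos at 50% epiboly (5.5 hpf). Overlapping peaks of the 6 lists (1 shared base or more) were joined, which gave 85003 regions, and the 1436 regions (1.69%) whose sequence name was neither a chromosome from 1 to 25 nor the mitochondrial genome (MT) were kept. These regions lay on 502 scaffolds, against 83557 regions on the 25 chromosomes and 10 on MT. The rule for the members uses only the name of the sequence and no measured value.

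The embryos were AB Wild Type, pooled within a sample, with 150 in each exposure. Controls were kept in 0.05% DMSO (3 samples) and the Ezh2i group in 5 μM PF-06726304 acetate (3 samples), from about the 2-cell stage until collection. PF-06726304 acetate inhibits Ezh2, the subunit of Polycomb repressive complex 2 that methylates lysine 27 of histone H3. The exposures were made in triplicate, but no label ties the replicates to separate spawnings, so all p-values measure the spread between these 6 samples, which may be technical in part. Whole embryos were used, so a change in the makeup of the embryo and a change per cell cannot be told apart.

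An unplaced scaffold is an assembled stretch of genome that could not be assigned to a chromosome. Sequence is commonly left unplaced where it is repetitive or differs between haplotypes. ATAC-seq reports open chromatin there as anywhere else, through the sites at which the transposase Tn5 inserts adapters, provided that the reads can be aligned.

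The lists rested on between 5894731 and 6877909 fragments per library and held between 48291 and 57178 peaks each. Peak height is the pileup at the summit as deposited, in fragments covering that base, and every list had a lowest height of 5 fragments. The local background is the number of fragments that the peak caller expected at that base from the same library, with a window of up to 10000 bases. Its lowest value was the same on scaffolds and chromosomes in each list, between 0.340 and 0.385 fragments, close to the genome-wide value. It was worked out from the deposited fold enrichment, which is the height divided by this background after 1 is added to each. Intervals given below are 95% Wilson intervals and cover counting error only.

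Nearly all scaffolds had names of the KN series, with 1350 regions on 462 scaffolds, and the other 86 regions lay on 40 scaffolds of the KZ series. The scaffolds mostly held few regions. A single region was found on 193 scaffolds, 2 to 4 regions on 228, and 5 or more on 81, which together held 619 regions. The highest number was 24 and the median 2. The regions lay close to scaffold starts in many cases, with 333 starting within the first 5000 bases and 95 within the first 1000. On 171 scaffolds no region ended beyond base 10000, the length of the background window, and these held 268 regions. Scaffold lengths were not used here, so the distance of a region from the far end of its scaffold is not given.

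Scaffold peaks were a small part of every list. There were 823, 810 and 733 scaffold peaks in control and 928, 804 and 961 under Ezh2i, in the order of the replicates, which is kept for all values by sample. The groups overlapped, because Ezh2i sample 2 lay below controls 1 and 2. Controls averaged 788.7 ± 48.6 scaffold peaks and Ezh2i samples 897.7 ± 82.8 (SD, n = 3 each), a difference of 109 peaks (two-sided exact permutation test, p = 0.3, where the smallest p that 3 against 3 allows is 0.1). With lists cut to equal length the difference was 12.7 peaks (exact permutation p = 0.4).

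Of the peaks on scaffolds and chromosomes together, 1.64%, 1.56% and 1.52% lay on scaffolds in control and 1.64%, 1.61% and 1.68% under Ezh2i. The 95% interval of each share was wider than this range, from 1.41% to 1.63% in control 3 and from 1.58% to 1.79% in Ezh2i sample 3. The mean share was 1.57 ± 0.061% in controls and 1.64 ± 0.034% in Ezh2i samples (SD, n = 3 each; exact permutation p = 0.3), and the difference of 0.073 percentage points became 0.026 with lists of equal length. Weighted by height, the scaffold share lay between 1.66% and 1.72% in all 6 samples, with group means that differed by 0.0075 percentage points (exact permutation p = 0.8). A difference between exposures was therefore not detectable with this number of samples. Between 354 and 427 scaffolds carried a peak in any 1 list, and 287 carried one in each of the 6.

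**Figure D1:**
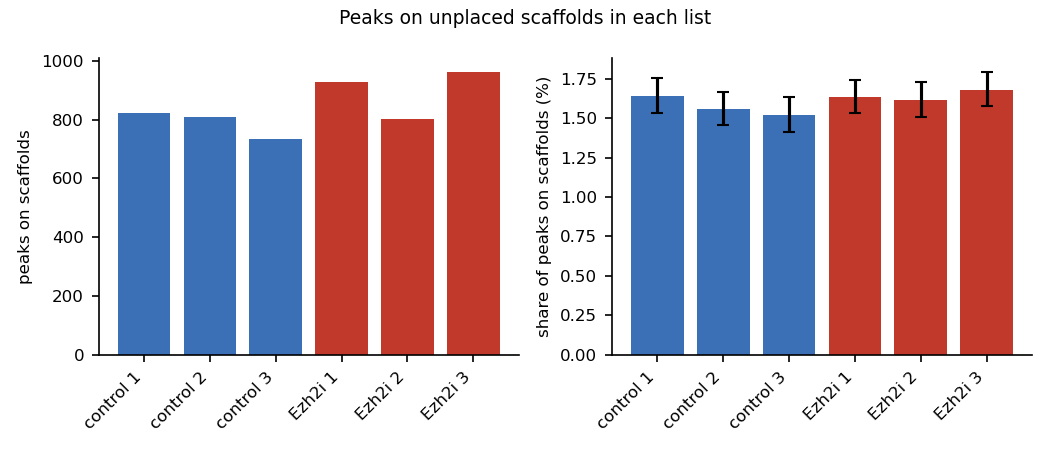
Scaffold peaks (left, number) and their share of all scaffold and chromosome peaks (right, %, with 95% Wilson intervals) in each of the 6 lists, controls in blue and Ezh2i samples in red. The counts run from 733 to 961 and the shares from 1.52% to 1.68%, and the groups overlap in both plots.

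Scaffold peaks were compared with chromosome peaks within each list, so that both values came from the same library. A background window of up to 10000 bases can reach past the ends of a scaffold, and its part in this comparison was not tested. The local background that the peak caller expected was lower at scaffold peaks. Its median was 0.470, 0.525 and 0.524 fragments on scaffolds in control, and 0.511, 0.542 and 0.485 under Ezh2i. On chromosomes it was 0.545, 0.581 and 0.620 in control and 0.577, 0.618 and 0.568 under Ezh2i. The scaffold value was the lower one in 6 of 6 lists, by 0.20 ± 0.036 on the log2 scale (SD, n = 6; two-sided exact sign-flip permutation test, p = 0.03125, the smallest that 6 lists allow; 0.0625 after adjustment over the 6 measures compared in this way).

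The median fold enrichment of scaffold peaks was also the lower one in 6 of 6 lists. It was 9.23, 9.47 and 8.96 on scaffolds in control, against 9.71, 9.63 and 9.39 on chromosomes. In Ezh2i samples 1, 2 and 3 it was 9.20, 9.46 and 9.58 on scaffolds, against 9.73, 9.73 and 10.04 on chromosomes. The mean difference was -0.059 ± 0.022 on the log2 scale (SD, n = 6; exact permutation p = 0.03125, adjusted 0.0625).

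Height and length were lower on scaffolds in fewer of the lists. The median height was 14 or 15 fragments on scaffolds and 15 or 16 on chromosomes, lower on scaffolds in 5 lists and equal in control 2 (mean log2 difference -0.096 ± 0.061, SD, n = 6; exact permutation p = 0.0625, adjusted 0.075). The median length lay between 129.5 and 137 bases on scaffolds and between 131 and 137 on chromosomes, a mean difference of -2 ± 2.39 bases (SD, n = 6; exact permutation p = 0.125).

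**Figure D2:**
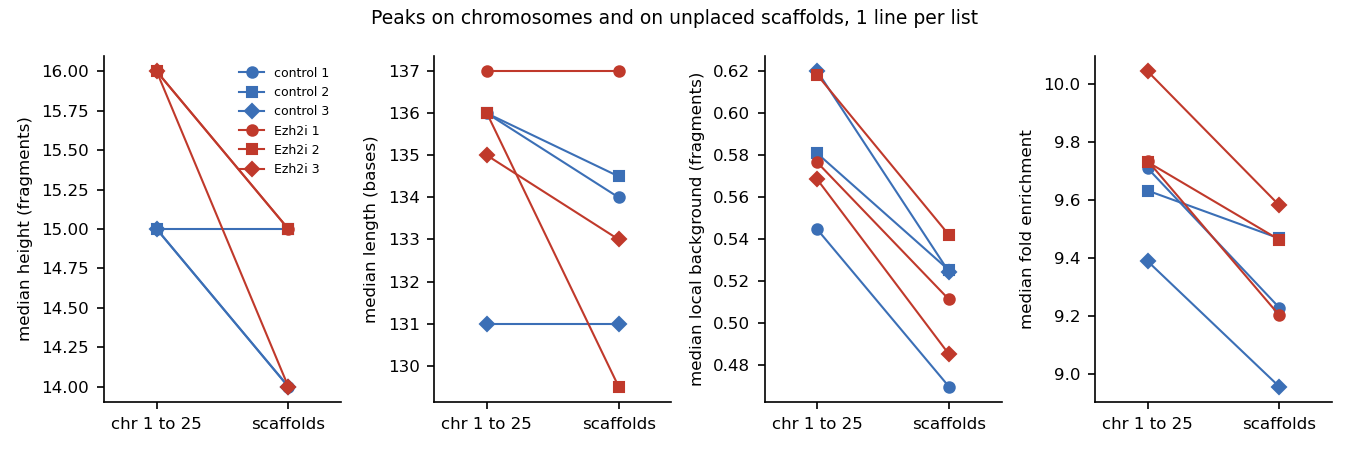
Median height (fragments), length (bases), local background (fragments) and fold enrichment of the peaks of each list on chromosomes 1 to 25 and on scaffolds; each line joins the values of 1 list, controls in blue and Ezh2i samples in red, and the vertical axes do not start at 0. Background and fold enrichment are lower on scaffolds in 6 of 6 lists, height in 5 and length in 4.

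The lower medians of background and height were those of scaffolds with few regions. When only the 81 scaffolds with 5 or more regions were kept, the median background was higher than on chromosomes, by 0.19 on the log2 scale (exact permutation p = 0.03125), and the height difference turned to 0.068 (exact permutation p = 0.125). On the scaffolds with fewer than 5 regions, a comparison added after seeing the data, the background difference was -0.47 and the height difference -0.16 (exact permutation p = 0.03125 for both). Fold enrichment did not follow this split. Its difference was -0.10 on scaffolds with 5 or more regions (exact permutation p = 0.03125) and -0.036 on the others (exact permutation p = 0.0625). In the 6 lists the median background lay between 0.584 and 0.720 fragments on the scaffolds with 5 or more regions and between 0.406 and 0.438 on the others, so the ranges did not overlap. The latter medians lay near the lowest backgrounds of the lists, 0.340 to 0.385 fragments, below which no peak had a value. The number of regions on a scaffold and the background are both readouts of the same fragments, and scaffold length was not available to separate them. With means in place of medians the background difference was -0.022 (exact permutation p = 0.219), which no longer stood apart from 0.

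A few scaffolds carried high backgrounds. The share of scaffold peaks on a background above 10 times the genome-wide value was 3.65%, 3.83% and 4.64% in control and 3.34%, 2.99% and 2.81% under Ezh2i. On chromosomes it was 1.98%, 1.83% and 1.67% in control and 1.98%, 2.72% and 2.09% under Ezh2i. The scaffold share was the higher one in 6 of 6 lists, by 1.495 percentage points on average, from 0.261 to 2.97 (exact permutation p = 0.03125, adjusted 0.0625). The 90th percentile of height was 51 to 58 fragments on scaffolds and 48 to 53 on chromosomes (mean log2 difference 0.077 ± 0.059, SD, n = 6; exact permutation p = 0.0625, adjusted 0.075). Both measures were chosen after seeing the data, and both rest on a few scaffolds. Of the 177 such scaffold peaks in the 6 lists, 122 lay on KN150411.1, KN149693.1, KN150271.1 and KN150617.1, and only 12 of the 502 scaffolds had any. Without these 4 scaffolds the share was between 0.647% and 1.56%, below that of the chromosomes in 6 of 6 lists, and the 90th percentile of height was above that of the chromosomes in 1 list, below it in 3 and equal in 2. The 4 were picked for these peaks, so the turned direction is a description without a test.

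Within the scaffolds, background differed with position. Peaks starting within the first 5000 bases had a median background between 0.531 and 0.599 fragments in the 6 lists, and the remaining scaffold peaks had one between 0.458 and 0.532. The former was the higher in 6 of 6 lists, by 0.18 ± 0.039 on the log2 scale (SD, n = 6; exact permutation p = 0.03125; measure chosen after seeing the data). The median heights of the near-start peaks, 14 to 16 fragments, and of the others, 14 or 15, overlapped. A background window reaches past the start of a scaffold at these positions, and its part in the difference was not tested.

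Set among the single chromosomes, the scaffolds came next to chromosome 4, whose long arm is known in zebrafish as repeat-rich and late replicating. Averaged over the 6 lists, the median height was 14.5 fragments on scaffolds, 13.8 on chromosome 4 and between 13.8 and 17.0 over the 25 chromosomes. The corresponding backgrounds were 0.510, 0.469 and 0.469 to 0.646 fragments, and the lengths 133, 126 and 126 to 138 bases. Only chromosome 4, with 3514 regions, had lower values than the scaffolds in height, length, background and fold enrichment. Scaffolds nonetheless lay above chromosome 4 in background, length and fold enrichment, each in 6 of 6 lists. Background differed by 0.12 ± 0.058 and fold enrichment by 0.058 ± 0.035 on the log2 scale, and length by 7.33 ± 1.99 bases. The exact permutation p was 0.03125 for each (SD, n = 6). In height, scaffolds lay above it in 4 lists and equalled it in 2 (log2 difference 0.068 ± 0.052, exact permutation p = 0.125). The comparison was chosen after seeing the data.

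The merged regions were slightly shorter on scaffolds at the median, 138 against 144 bases, but held more long regions. Of the scaffold regions 20 (1.39%) spanned 500 bases or more, against 425 (0.509%) of the chromosome regions. Neighbouring regions stood closer together, with a median gap of 4344 bases on scaffolds and 8195 bases on chromosomes, and 26.1% against 15.2% of gaps were below 1000 bases. A gap can only be measured where 1 scaffold holds 2 or more regions, and it cannot be longer than that scaffold. Long gaps are thus cut off on scaffolds, so these values do not show a denser spacing there.

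Recurrence was counted as the number of lists with a peak. A peak was found in all 6 lists for 461 scaffold regions (32.1%, interval 29.7% to 34.6%) and for 35.4% of chromosome regions, and in a single list for 430 scaffold regions (29.9%) and 26.03% of chromosome regions. Over single chromosomes the share in all lists ran from 28.6% on chromosome 4 to 37.8%, a range that holds the scaffold share. On chromosome 4, 30.8% of regions had a peak in a single list. Between 2 and 5 lists had a peak in 180, 134, 115 and 116 scaffold regions. Regions of KZ scaffolds recurred in all lists in 33 of 86 cases (38.4%) and those of KN scaffolds in 428 of 1350 (31.7%). The KZ regions were also taller, with a median tallest peak of 15 against 13 fragments. Regions share libraries and scaffolds, so these shares are descriptions without a test.

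Recurrence followed height. Among the 425 scaffold regions whose tallest peak was 5 to 9 fragments, 0.235% were called in all lists, against 0.187% on chromosomes. Among scaffold regions whose tallest peak was 10 to 14 fragments, 7.90% were called in all lists, and among those of 15 to 29 fragments 49.3%. The chromosome shares, 7.27% and 50.3%, were close to these. They parted in the class of 30 to 59 fragments, where 149 of 176 scaffold regions (84.7%, interval 78.6% to 89.2%) but 94.2% of chromosome regions were called in all lists. At 60 fragments or more the shares were 99.03% and 99.7%.

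**Figure D3:**
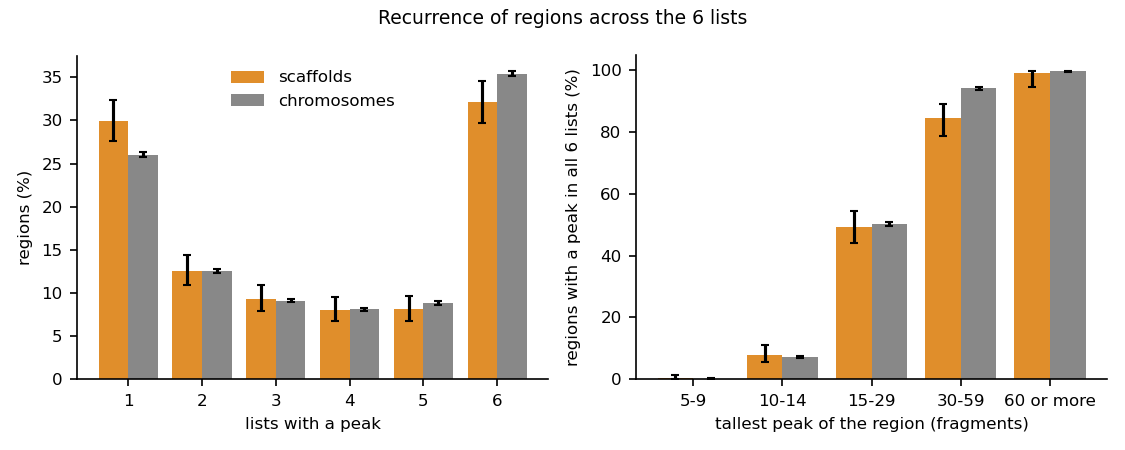
Left, share of merged regions (%) by the number of lists with a peak; right, share of regions with a peak in all 6 lists (%) by the height of the tallest peak (fragments); scaffolds in orange, chromosomes in grey, bars with 95% Wilson intervals. Scaffold regions were called in all lists in 32.1% of cases against 35.4%, and the shares part most in the class of 30 to 59 fragments (84.7% against 94.2%).

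In all, 28 of 279 scaffold regions with a peak of 30 fragments or more (10.0%) were missing from at least 1 list, against 3.95% on chromosomes. These 28 regions lay on 12 scaffolds, with 9 on KN149693.1 and 7 on KN150411.1. Outside those 2 scaffolds, 12 of 255 tall regions (4.71%) were missing from a list. A background above 10 times the genome-wide value was found at 15 of the 28, and at 184 of the 670 such regions on chromosomes. Among tall regions on a lower background, 13 of 247 on scaffolds (5.26%) and 3.05% on chromosomes were missing from a list. The split by scaffold was made after seeing the data.

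The scaffold with the most regions, KN149693.1 (24 regions between bases 318 and 39151), varied more between libraries than any other scaffold with a region in all lists and a mean summed height of at least 100 fragments. Its summed peak height was 39.9, 69.8 and 110.6 per 1000000 fragments in control, and 35.1, 65.5 and 24.8 under Ezh2i. Control 3 was the highest and Ezh2i sample 3 the lowest, and the groups overlapped. The coefficient of variation was 54.4% over the 6 libraries, against a median of 17.2% over the 53 scaffolds of that kind. A region without a call added nothing to these sums, although fragments below the calling limit may lie there. The range and the variation therefore depend on missing calls as well as on heights. In regions called in every list, Ezh2i sample 1 was the lowest at 14590-14754 (16 fragments) and 36175-36414 (27). Ezh2i sample 3 was the lowest at 488-721 (14) and 34632-34855 (40).

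Many regions of KN149693.1 were tallest in the same library. Control 3 had the tallest peak in 18 of the 24 regions, and 17 of the 24 had no peak in Ezh2i sample 3. In 5 of the 18, control 3 had the only peak, so its first place was fixed by the call. These heights were not scaled to the library, and control 3 had the most fragments (6877909). The region at 36175-36414 was tallest in control 2, and that at 318-416 was called in Ezh2i sample 1 alone. At KN149693.1:34632-34855 the heights were 60, 73 and 111 fragments in control and 44, 84 and 40 under Ezh2i. At KN149693.1:14590-14754 they were 26, 33 and 64 in control and 16, 35 and 27 under Ezh2i. Sample 2 of the Ezh2i group thus lay with the controls, while control 1 lay near the lower Ezh2i samples, and for the region at base 34632 the log2 difference of Ezh2i from control was -0.68 (limma, unadjusted p = 0.075). Among the regions of this scaffold called in all lists (4), none passed the unadjusted threshold of 0.05.

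KN150411.1, with 13 regions between bases 2057 and 17553, also varied between libraries, with overlapping groups. Its summed height was 90.4, 84.9 and 47.4 per 1000000 fragments in control and 75.6, 38.7 and 63.3 under Ezh2i. Regions without a call again added nothing to the sum. Here control 3 and Ezh2i sample 2 were the low libraries, an order unlike that of KN149693.1. Its region at 10739-10828 had the highest background of any scaffold region by mean over the lists with a peak, 12.21 fragments. That mean is a single value, because the region was called in control 1 alone. In the same list KN150271.1:1461-1744 stood on 12.25 fragments. The region at 10739-10828 had 32 fragments there, while in other lists a pileup of up to 30 to 32 fragments would not have been called at that background. The other scaffolds with the most regions were KN150487.1 with 14 and KN149692.1 and KN150127.1 with 13 each.

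The tallest region of the scaffolds had a higher mean height than any region on chromosomes 1 to 25. KN149861.1:5-195, which starts at the 5th base of its scaffold, reached 498, 552 and 590 fragments in control and 460, 544 and 500 under Ezh2i. Its background lay between 5.07 and 7.04 fragments. Its mean was 524 fragments, and the highest mean of a chromosome region was 485.8. In Ezh2i sample 1 alone, however, the tallest chromosome peak, with 487 fragments, stood above it. The groups overlapped, with a log2 difference of Ezh2i from control of -0.06 ± 0.18 (SE; limma with Benjamini-Hochberg adjustment over 30071 regions, adjusted p = 0.975).

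KN150271.1 held 4 regions between bases 312 and 2178, each with a peak in all lists, and contributed 4.12% of the height on scaffolds, the highest sum of any. Its tallest region, 1461-1744, had 352, 461 and 419 fragments in control and 344, 429 and 301 under Ezh2i. The region at 1017-1366 had 228, 287 and 245 fragments in control and 189, 248 and 155 under Ezh2i. The lowest value of both regions fell in Ezh2i sample 3 and the highest in control 2. All 4 regions stood on nearly the same background within a list, from 8.96 fragments in Ezh2i sample 3 to 14.9 in control 2. The summed height of the scaffold was 143.5, 164.8 and 135.8 per 1000000 fragments in control and 118.7, 152.9 and 102.6 under Ezh2i, and the groups overlapped through Ezh2i sample 2. With KN149861.1, KN149790.1, KN150411.1 and KN150617.1 it held 12.7% of the scaffold height.

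The other regions among the 10 tallest differed in how closely the libraries lay together. KN150043.1:27751-27938 was among the steadier ones, with 136, 136 and 150 fragments in control and 149, 119 and 142 under Ezh2i. KN149790.1:904-1110 spread further, with 154, 142 and 113 in control and 171, 133 and 217 under Ezh2i. KN150123.1:37094-37395 had 150, 157 and 153 fragments in control and 201, 153 and 199 under Ezh2i. In this last region Ezh2i samples 1 and 3 stood above every control and sample 2 among them. Over the 461 regions called in every list the median of the mean heights was 23 fragments, against 24.5 on chromosomes, and 27 (5.86%) had a mean of 100 fragments or more, against 3.16% on chromosomes.

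**Figure D4:**
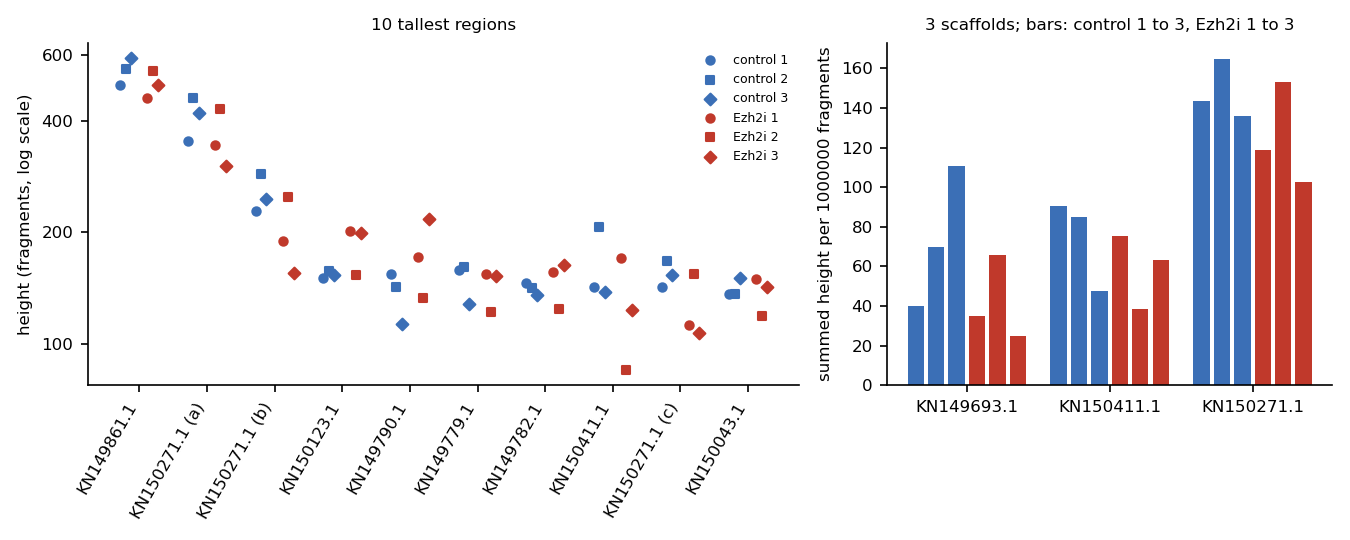
Left, height (fragments, log scale) of the 10 tallest scaffold regions in each sample; letters mark regions of the same scaffold. Right, summed peak height per 1000000 fragments on 3 scaffolds, 1 bar per sample, where a region without a call adds nothing. Controls are blue and Ezh2i samples red; the groups overlap on all 3 scaffolds, and KN149693.1 runs from 24.8 to 110.6.

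Of the 5 longest regions 1 was also among the 10 tallest. KN150079.1:6144-7223 spanned 1080 bases, with 41, 43 and 34 fragments at the summit in control and 42, 45 and 42 under Ezh2i. KN150411.1:5700-6537 spanned 838 bases, with 81, 75 and 51 fragments in control and 69, 56 and 62 under Ezh2i. Heights of the former lay within 11 fragments of each other across all samples. The next were KN150338.1:118-929 with 812 bases, and KN150079.1:25917-26679 and KN150411.1:13197-13959 with 763 bases each.

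Whether inhibition of Ezh2 changed the height of single regions was asked with limma on quantile-normalized log2 heights, over the 30071 regions of the genome called in every list. None of the 461 scaffold regions passed an adjusted p of 0.05, and the share called over all regions was 0%. The smallest adjusted p of a scaffold region was 0.746. At an unadjusted p under 0.05 there were 45 scaffold regions (9.76%) on 40 scaffolds, against 6.24% of all regions tested. Of the 45, 30 were higher in Ezh2i samples (6.51%, all regions 3.19%) and 15 lower (3.25%, all regions 3.05%). With heights per 1000000 fragments the split was 49 higher and 5 lower, against 5.84% and 0.825% of all regions. Regions on 1 scaffold share their neighbourhood and are not independent of each other.

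The plain order of the samples was also counted. In 36 scaffold regions (7.81%) every Ezh2i sample stood above every control, against 5.69% of all regions, and in 20 (4.34%) every one stood below, against 5.39%. The median log2 difference was 0.034 on scaffolds and -0.0012 over all regions, and 253 of 461 scaffold regions (54.9%) had a difference above 0 against 49.8% of all. Without control 3 the scaffold median was -0.0036. The spread between replicates was also wider on scaffolds, with a median residual SD of 0.28 against 0.26 on the log2 scale. With heights per 1000000 fragments the medians were 0.16 on scaffolds and 0.12 over all regions, so that scaling moved all regions upward together.

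The scaffold region with the smallest p was KN149797.1:32941-33079, with 7, 10 and 8 fragments in control and 17, 24 and 18 under Ezh2i. Its groups did not overlap, and the log2 difference was 1.09 ± 0.23 (SE; limma, unadjusted p = 0.000512, adjusted p = 0.746). KN150196.1 carried a pair of such regions. At 22966-23250 the heights were 10, 13 and 12 fragments in control and 22, 21 and 22 under Ezh2i (log2 difference 0.78). At 14714-14909 they were 22, 34 and 26 in control and 54, 53 and 43 under Ezh2i (0.76). Every Ezh2i sample stood above every control in both. The other 2 regions of KN150196.1 with a peak in all lists had differences of 0.26 and 0.34 and overlapping groups.

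On KN150596.1 the 3 regions called in every list were all higher in Ezh2i samples without overlap of the groups. The first, at 6115-6459, had 22, 21 and 24 fragments in control and 51, 28 and 34 under Ezh2i. Its neighbour at 6662-6909 had 31, 31 and 25 fragments in control and 50, 46 and 54 under Ezh2i. The region at 49147-49288 had 11, 13 and 10 in control and 18, 14 and 19 under Ezh2i. Their log2 differences were 0.57, 0.65 and 0.46. The summed height of the scaffold was 15.6, 14.5 and 12.8 per 1000000 fragments in control and 31.4, 17.3 and 24.5 under Ezh2i. This sum contains the same 3 regions and counts uncalled regions as 0, so its lack of overlap is no separate support.

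KN149932.1:27784-28327 completed the 5 smallest p-values of higher regions, with 32, 29 and 27 fragments in control and 51, 46 and 60 under Ezh2i (log2 difference 0.70). The adjusted p was 0.746 for each of the 5 higher regions. On fold enrichment in place of height, the log2 difference fell to 0.27 at KN150596.1:6662-6909, 0.42 at KN150196.1:14714-14909 and 0.40 at KN149932.1:27784-28327. The regions KN150596.1:6115-6459 and KN150596.1:49147-49288 were picked out after their values were seen.

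Among regions lower in Ezh2i samples the smallest p was that of KN150216.1:454-944, with 19, 18 and 18 fragments in control and 15, 10 and 10 under Ezh2i (log2 difference -0.81 ± 0.20, SE; limma, adjusted p = 0.746). KN150338.1:118-929, also among the longest, had 20, 16 and 16 fragments in control and 14, 9 and 13 under Ezh2i (log2 difference -0.67). The groups did not overlap in either. KN149978.1:2796-2964 and KN150411.1:15969-16266 had log2 differences of -0.75 and -0.55. The former had 12, 15 and 20 fragments in control and 9, 11 and 10 under Ezh2i, without overlap. The latter had 38, 41 and 29 in control and 28, 23 and 30 under Ezh2i, so its groups overlapped. KN150031.1:3390-3545 had 36, 28 and 14 fragments in control and 15, 14 and 17 under Ezh2i (log2 difference -0.81, adjusted p = 0.748), so its groups overlapped through control 3. Its difference was -0.53 without control 1 and -0.54 on fold enrichment, on which KN150411.1:15969-16266 had -0.28.

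Regions called in 1 exposure alone were few. A call in each of the 3 Ezh2i samples without any in control was found for 15 scaffold regions (1.04%; 0.828% of all 85003 regions), each on a different scaffold, and the reverse for 4 (0.279%; 0.345% of all regions). With lists of equal length these counts were 12 and 10, and the shares over all regions in that setting are not given. The tallest was KN150127.1:1863-1975, with 27, 30 and 22 fragments under Ezh2i. At the same background relative to the library, a pileup of up to 11 or 12 fragments in a control would have gone uncalled. At the neighbouring region 2555-2709 the background was 2.40, 3.39 and 3.77 fragments in control and 3.14, 2.89 and 2.51 under Ezh2i. The limit in controls 2 and 3 may therefore lie higher. KN150698.1:25648-25746 had 22, 29 and 19 fragments, and up to 9 would have gone uncalled.

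Next came KN149795.1:14335-14431 with 15, 14 and 18 fragments under Ezh2i, KN150631.1:30321-30480 with 12, 10 and 19, and KN150565.1:10426-10514 with 11, 12 and 16. The other 10 had mean heights down to 6.67 fragments, near the lowest height that can be called. All 15 therefore show a missing call in control, and the number of fragments there is known only to lie below the calling limit.

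The 4 regions called in controls alone were of similar height to most of these. KN149693.1:13328-13449, on the scaffold whose summed height varied most between libraries, had 13, 19 and 16 fragments in control. KN150031.1:6317-6407 had 16, 15 and 11, KN150495.1:26641-26906 had 10, 12 and 9, and KN150074.1:17681-17859 had 7, 9 and 7. None reached 20 fragments in any control. Leaving out any 1 of the 6 libraries raised the number of regions called in Ezh2i samples alone to between 18 and 50. That in controls alone rose to between 5 and 16, since fewer lists then had to share a call. The former was highest without Ezh2i sample 2. Shares over all regions are not given for these settings, so the counts show nothing particular to scaffolds.

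When all regions called in 3 or more lists were included and each missing peak was set to the lowest height, 4 of 826 scaffold regions passed an adjusted p of 0.05 (0.484%; 0.232% of 52189 regions). They were the 3 tallest Ezh2i regions above, with log2 differences of 2.31, 2.11 and 1.55, and KN149693.1:13328-13449 with -1.73 (limma, adjusted p between 0.0326 and 0.0437). In each the values of 1 whole group were imputed, so that group had no spread of its own. With the missing peaks set instead to the tallest pileup that would have gone uncalled, an alternative added after seeing the data, none passed (0% of all regions), and the differences were 1.01, 1.19, 0.70 and -0.97 with adjusted p between 0.237 and 0.467.

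**Figure D5:**
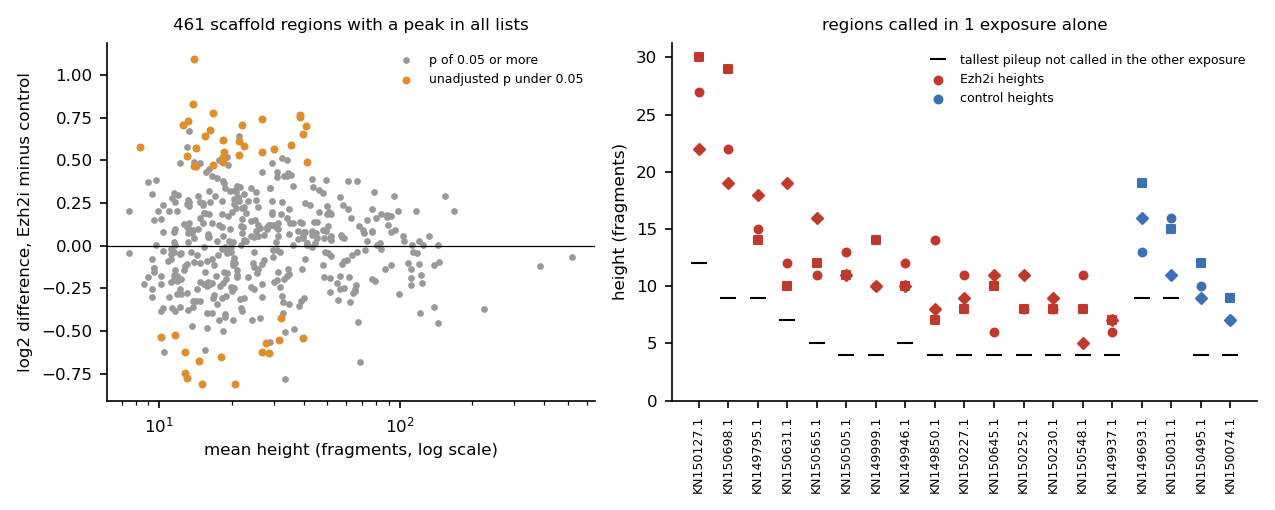
Left, log2 difference in height (Ezh2i minus control, limma) against mean height (fragments, log scale) for the 461 scaffold regions with a peak in all lists, 45 of them with an unadjusted p under 0.05 in orange. Right, heights (fragments) of the 15 regions called in Ezh2i samples alone (red) and the 4 called in controls alone (blue), 1 point per sample, with dashes at the tallest pileup that would have gone uncalled in the other exposure. None of the 461 passed the adjusted threshold.

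A change with exposure in the difference between scaffolds and chromosomes was not detectable. For the local background it was -0.20 ± 0.050 in controls and -0.20 ± 0.028 in Ezh2i samples (log2, SD, n = 3 each; exact permutation p = 1). For height it was -0.066 ± 0.057 in controls and -0.13 ± 0.057 in Ezh2i samples (exact permutation p = 0.6), and for length -1.17 ± 1.04 and -2.83 ± 3.33 bases (exact permutation p = 0.7). After adjustment over the 6 comparisons between exposures, the p-values lay between 0.9 and 1. With 3 samples a group, such tests cannot show that the exposures are alike.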

How the data were processed

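The authors ran snakePipes in its ATAC mode on GRCz11 (trimming with Trim Galore, alignment with Bowtie2) and called peaks per sample with MACS2 (2.1.1.20160309), using no control library and a q-value limit of 0.001. The authors deposited the summit pileup (a signal in fragments), the ratio of pileup to background (fold enrichment, 1 added to each), −log10 p-values and q-values, and peak lengths. Backgrounds derived from these gave back 100% of the deposited −log10 p-values (tolerance 0.01, for values below 250). The files hold no read counts, so limma (3.58.1, R 4.3.3) was used on log2 heights in place of the study's count test, and was tested on simulated data. List values were compared with exact permutation tests (Python 3.11.15, scipy 1.17.1, numpy 2.4.6, pandas 2.3.3, matplotlib 3.10.9).

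Members, measures and lists were chosen with earlier results of these data known. Regions were named by rule: the 10 tallest, the 5 smallest p-values in each direction, the 5 highest backgrounds, the 5 longest, those of 1 exposure alone, and the 5 scaffolds with the most regions or height. No annotation of GRCz11 was used, so no gene is named. Alternatives were other thresholds, merging, scaling, subsets, missing-peak values, a replicate block and leaving out samples.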

Additional observations from a re-analysis of the deposited data

How the results depend on the processing

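The recurrence and the number and share of scaffold peaks kept their direction under all alternatives tried. Lists of equal length, however, cut the difference in peaks to 12.7 and in share to 0.026 percentage points. The count of 0 scaffold regions past the adjusted threshold held in all alternatives but 1, as 4 regions passed with missing peaks at the lowest height. The unadjusted count lay between 40 and 66. It was 66 of 826 scaffold regions (7.99%) with missing peaks at the lowest height. In the fit of regions called in every list it was 45 of 461 (9.76%). Shares over all regions are not given beside this range. The 10 regions named by p kept their direction in all settings, with no adjusted p below 0.327, but several were smaller on fold enrichment. They were picked for small p-values from the same heights, so the kept direction was largely set by that choice and is no separate support. Their highest unadjusted p over the settings (limma) ran from 0.00475 at base 32941 of KN149797.1 to 0.112 at base 15969 of KN150411.1. Against chromosomes, means in place of medians gave a length difference of 1.25 bases and a background difference of -0.022. Scaffolds with at least 5 regions gave 0.068 for height, 0.19 for background, -5.92 bases for length and -0.10 for fold enrichment. Those with fewer gave -0.16 for height, 0.67 bases for length and -0.036 for fold enrichment. Without chromosome 4, an alternative added after seeing the data, height was -0.11 and length -2.67 bases. Leaving out 1 sample gave -0.21 to -0.19 for background and -0.066 to -0.055 for fold enrichment, where the p of 0.0625 is the smallest that 5 lists allow.

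Between exposures, the background difference was -0.00066 without KN149693.1, -0.0061 without chromosome 4 and between -0.018 and 0.030 with 1 sample left out. The length difference lay between -3.08 and 0.17 bases and the height share between -0.0087 and 0.018 percentage points with 1 sample left out, and lists of equal length gave -0.0032. The median log2 difference was 0.16 per 1000000 fragments and -0.0036 to 0.052 with 1 sample left out. Regions of controls alone numbered 10 with lists of equal length (12 for Ezh2i samples) and 5 to 16 with 1 sample left out, and those of Ezh2i samples 18 to 50. No shares over all regions are given beside these counts. The correlations by replicate number were weak (0.098, -0.029 and -0.12), which cannot show whether samples of equal number share a spawning. A replicate block left 0 regions past the threshold. At an unadjusted p under 0.05 it gave 50 scaffold regions in place of 45, without a share over all regions to set beside the 50. Keeping regions of at least 2 lists cannot change the fit or these counts and was not run for them. The lowest height was 5 fragments in every list, so weaker signals are not covered.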
